A study of Mus musculus with 12 samples.

Results

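T lymphocyte identity and signalling genes were compared in the spleens of 12 male ICR mice, an outbred stock, with 3 mice in each of 4 groups. The genes were chosen by mouse symbol as a list of 39 that T cells use to build and read the T cell receptor or that mark CD4, CD8, naive and regulatory T cells. All 39 were found among the 18221 genes listed, as 136 RefSeq transcripts whose values were summed for each gene. Of them, 38 were among the 12671 genes tested, those that reached an RPKM of 1 (a read number scaled to transcript length and library size) in 3 or more mice. Con-sa mice were given saline and no busulfan. The other 3 groups received 1 injection of busulfan, an alkylating anticancer drug, at 40 mg/kg, and were then dosed with saline (B-sa), with gut contents of control donors (B+Con-FMT) or with those of donors that had been given alginate oligosaccharide (AOS) at 10 mg/kg (B+A10-FMT). FMT is fecal microbiota transplantation, and here the small intestine contents of several donors were pooled, so that the recipients of a group shared 1 donor material. Mice were 3 weeks old at the start, were dosed orally for 2 weeks and were sampled at 8 weeks of age. The samples of a group are labelled as separate samples and carry no further origin, so the p-values measure the spread between these samples.

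A T cell recognises antigen through its receptor, whose chains are held in the membrane by the CD3 proteins and the zeta chain. CD4 or CD8 brings the kinase Lck to the engaged receptor, Zap70 is recruited, and adaptors such as Lat pass the signal on, while CD28 and other surface receptors set its strength. In the spleen, T cells gather around the arterioles in the T zone, most of them naive cells kept alive by interleukin 7, with regulatory T cells marked by the transcription factor Foxp3 among them. Cd2, Cd27, Cd247, Lck and Txk are also transcribed by natural killer (NK) cells, and mouse B cells also transcribe Cd2.

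Sequences upstream of a RefSeq start of 4 of the genes are shown because these genes stood for the different patterns described further on. Cd3e (T cell receptor complex) and Trat1 (signalling adaptor) were higher in B+Con-FMT than in Con-sa, Il7r was lower in B-sa than in every other group, and Dapl1 rose from Con-sa to B-sa. Each run is the 250 bases before the start used in the RefSeq table (GRCm38.p6), written 5′ to 3′ in the direction of the gene. That start need not be the outermost one: the Trat1 run lies inside the full RefSeq span of the gene, and the Cd3e and Il7r runs overlap the first bases of theirs. Capitals mark GGAAG, the core of ETS factor motifs, and CTTTGA, the core of TCF/LEF motifs, on either strand. The Cd3e run is chr9:45009612-45009861 on the minus strand, that of Trat1 is chr16:48772063-48772312 on the minus strand, that of Il7r is chr15:9529877-9530126 on the minus strand and that of Dapl1 is chr2:59484403-59484652 on the plus strand.
Cd3e: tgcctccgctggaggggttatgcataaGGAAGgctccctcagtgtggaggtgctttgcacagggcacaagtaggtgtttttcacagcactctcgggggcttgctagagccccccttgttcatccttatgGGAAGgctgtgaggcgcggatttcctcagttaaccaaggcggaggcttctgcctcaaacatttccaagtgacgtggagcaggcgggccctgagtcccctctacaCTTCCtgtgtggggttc
Trat1: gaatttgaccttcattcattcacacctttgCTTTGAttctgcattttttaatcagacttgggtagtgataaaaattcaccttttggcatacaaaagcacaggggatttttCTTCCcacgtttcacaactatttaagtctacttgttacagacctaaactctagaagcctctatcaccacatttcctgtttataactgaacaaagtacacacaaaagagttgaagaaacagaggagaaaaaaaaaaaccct
Il7r: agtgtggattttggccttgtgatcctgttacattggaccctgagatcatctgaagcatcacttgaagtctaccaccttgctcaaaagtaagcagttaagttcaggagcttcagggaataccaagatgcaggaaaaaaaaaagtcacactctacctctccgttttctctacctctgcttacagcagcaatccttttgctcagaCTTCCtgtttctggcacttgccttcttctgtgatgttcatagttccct
Dapl1: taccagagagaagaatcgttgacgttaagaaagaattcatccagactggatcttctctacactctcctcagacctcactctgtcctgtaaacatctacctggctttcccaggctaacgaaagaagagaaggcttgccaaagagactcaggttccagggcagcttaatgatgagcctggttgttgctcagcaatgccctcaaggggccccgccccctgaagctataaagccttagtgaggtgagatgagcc

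Of the 39 genes, 29 had an upstream sequence in the RefSeq table, some with several starts, which gave 43 windows. GGAAG was present in 34 of the 43 windows (79.1%), compared to 64.1% of all 32536 distinct upstream windows of the same length. CTTTGA was present in 6 of the 43 (14%), those of Bcl11b, Cd3d, Lef1, Trat1, Txk and Zap70, compared to 13.9% of all windows. The further motifs searched on both strands, with overlaps between motifs allowed, were TGTGGT (RUNX) in 11.6% of the 43 windows and 14% of all windows, AGATA (GATA) in 18.6% and 26.5%, and CANNTG (E box) in 67.4% and 66.2%. Windows of the same gene can overlap and are not independent. Among the 4 sequences shown, Cd3e held the ETS core 3 times and the E box once, Trat1 held the ETS, TCF/LEF and RUNX cores once each, and Il7r held the ETS core once and the E box 3 times. The Dapl1 window held none of the 5 motifs. Cd3g and Cd3d lie head to head on chromosome 9, with 1355 bases between the starts of the table.

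The steps of the lowest RPKM values gave an estimated depth of 15000000 to 15600000 reads per mouse, so that an RPKM of 1 stands for roughly 15.0 to 15.6 reads on each kilobase of transcript. The summed RPKM was 677033 to 772157 per mouse, and the globin genes took 23.3% to 32.4% of it. The 38 genes tested were at 1 RPKM or more in all 12 mice. Among the highest were Cd3g at 68.4 to 115 and Cd2 at 75.7 to 95.5 RPKM. The Cd3g values show RNA of the T cell receptor complex in every spleen, while NK and B cells also transcribe Cd2. Genes had to reach 1 RPKM in several mice to be tested, so the detection of the 38 does not test the T cell label. Rag1, which recombines receptor genes in developing lymphocytes, was at 0.09 to 0.4 RPKM and was not tested. The exocrine pancreas lies against the spleen, and its acinar genes (11 markers) summed to 7856 to 12700 RPKM in B+Con-FMT mice, above the 1276 to 6985 of Con-sa and the 456 to 3231 of B-sa mice, while B+A10-FMT mice spanned 429 to 9121. The 10 NK cell markers were lower in all busulfan groups, with a summed RPKM of 137 to 146 for Con-sa mice, 66.2 to 73.6 for B-sa mice, 64.8 to 76.1 for B+Con-FMT mice and 67.8 to 93.4 for B+A10-FMT mice. The 14 B cell markers summed to 2545 to 2794 for Con-sa mice, 1928 to 2341 for B-sa mice, 2211 to 2327 for B+Con-FMT mice and 2256 to 2379 for B+A10-FMT mice. The part of these shifts in the results that follow was not tested, except where a value is given.

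The T lymphocyte genes were highest in B+Con-FMT. The mean of log2(RPKM + 1) over the 38 genes was 3.97 ± 0.10 in the Con-sa mice, 3.99 ± 0.18 in the B-sa mice, 4.24 ± 0.15 in the B+Con-FMT mice and 4.08 ± 0.09 in the B+A10-FMT mice (SD, n = 3). By mouse it was 3.91, 3.91 and 4.08 in the Con-sa mice, 4.19, 3.88 and 3.90 in the B-sa mice, 4.41, 4.16 and 4.15 in the B+Con-FMT mice and 4.08, 3.99 and 4.18 in the B+A10-FMT mice. The 3 B+Con-FMT mice lay above all Con-sa mice, but B-sa mouse 1 and B+A10-FMT mouse 3 lay above B+Con-FMT mice 2 and 3. Of the 38 genes, 29 (76.3%) had their highest group mean in B+Con-FMT, where 19.8% of all tested genes had theirs. Ctla4, Ikzf2, Pdcd1 and Tnfrsf4 were highest in B-sa, Il2ra, Il7r and Ms4a4b in B+A10-FMT, and Cd2 and Txk in Con-sa. In bulk spleen RNA, fewer T cells and less of these RNAs per T cell cannot be told apart.

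Within each group, 1 mouse was the highest for most of the genes. B+Con-FMT mouse 1 was the highest of its group for 35 of the 38 genes (92.1%, compared to 34% of all tested genes), B-sa mouse 1 for 33 (86.8% and 45.8%), B+A10-FMT mouse 3 for 28 (73.7% and 38.7%) and Con-sa mouse 3 for 27 (71.1% and 43.1%). In the mean over the 38 genes, too, these 4 mice were the highest of their groups. In the busulfan groups they were also the mice with the highest acinar sum of their group (12700, 3231 and 9121 RPKM), whereas Con-sa mouse 3 had the lowest of its group (1276 RPKM).

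**Figure D1:**
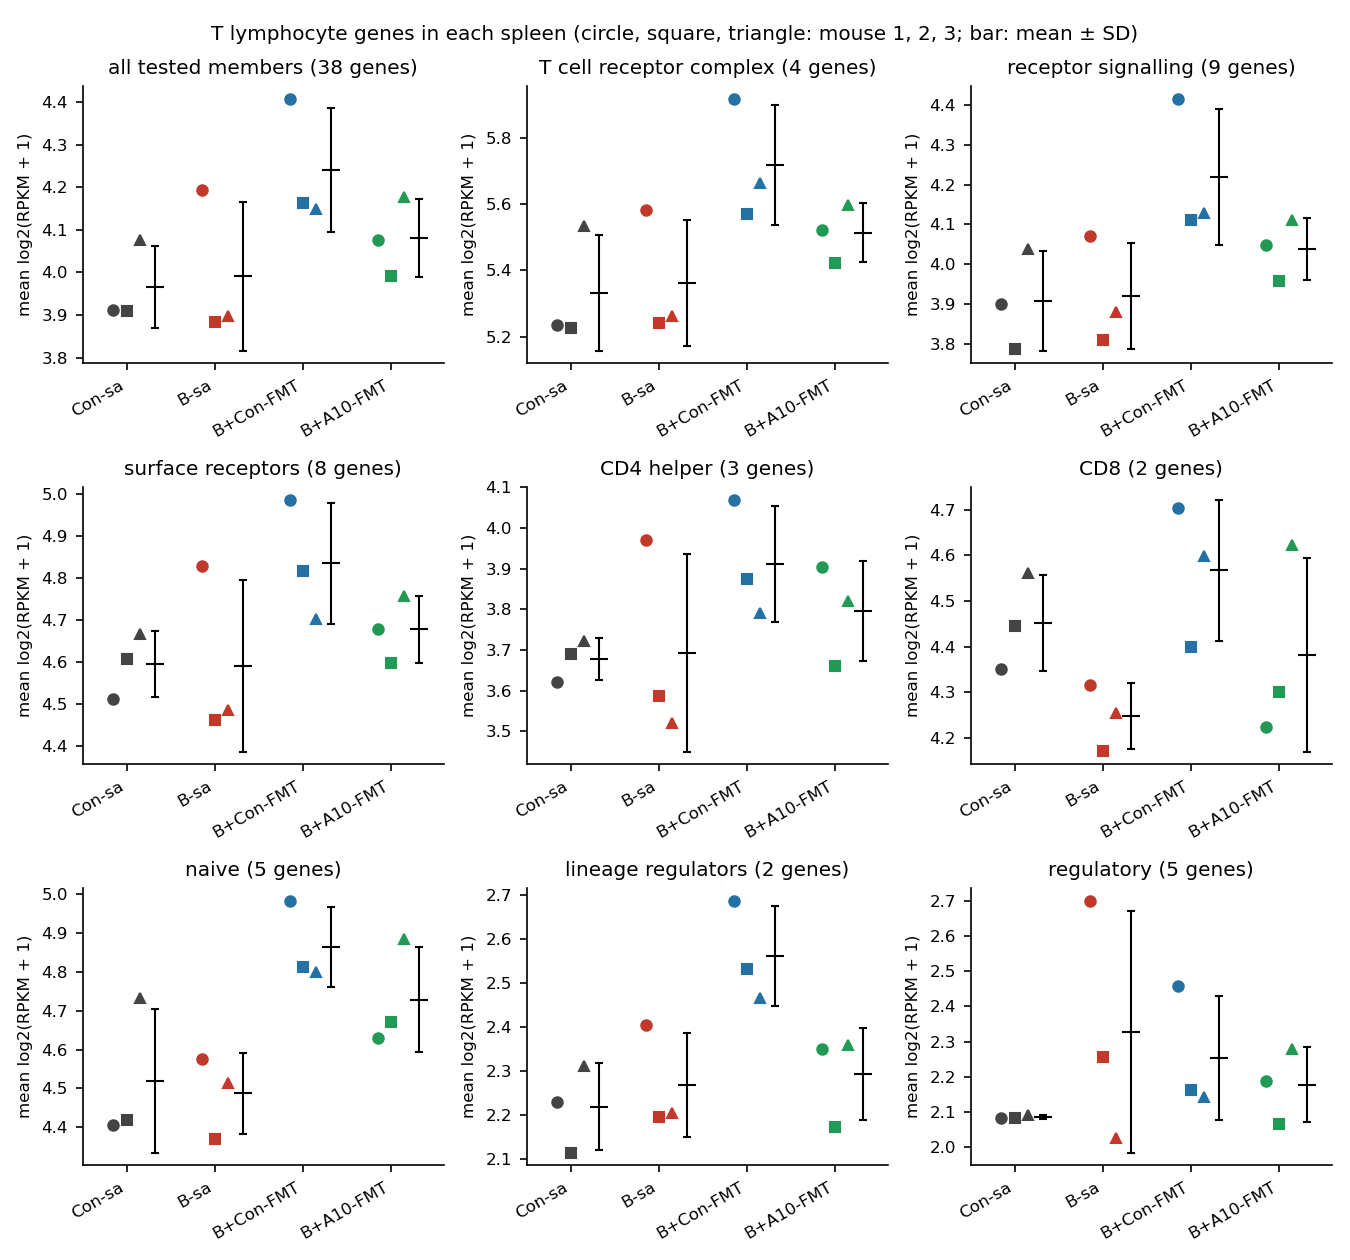
Mean log2(RPKM + 1) over all 38 tested T lymphocyte genes and over each role group (y axis), for each mouse (points) of the 4 groups (x axis), with the mean and SD beside them. The 3 B+Con-FMT points lie above all Con-sa points for the 38 genes, while the regulatory genes peak in B-sa mouse 1 at 2.70 and are nearly level in Con-sa at 2.086 ± 0.005.

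Each gene was tested in 6 comparisons, which share samples with each other, so that calls of the same gene in several of them are not independent. Adjusted p is that of limma with Benjamini-Hochberg adjustment over the 12671 genes, a gene is said to rise or fall where it is under 0.05, and log2 fold changes are differences of log2(RPKM + 1), which understate changes of low genes. Among all genes called, the share that rose was 32.6% for B-sa mice against Con-sa mice and 55.6% when the RPKM were rescaled by median-of-ratios factors. The corresponding shares were 75.9% and 44.7% for B+A10-FMT mice against B-sa mice, 73.2% and 44.6% for B+A10-FMT mice against B+Con-FMT mice, and 26% and 52.4% for B+Con-FMT mice against Con-sa mice. With equal totals outside the globin genes, the share was 37.2% in place of 73.8% for B+Con-FMT mice against B-sa mice, 89.8% for B+A10-FMT mice against B+Con-FMT mice, 10.8% for B+Con-FMT mice against Con-sa mice and 35.9% in place of 28.8% for B+A10-FMT mice against Con-sa mice.

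Compared to Con-sa, 10 of the 38 genes rose in B+Con-FMT and none fell. Over all genes tested, 8.87% were called in this comparison, 2.3% higher and 6.57% lower. The risers were Cd3e and Cd3g of the receptor complex, Lck, Lat and Trat1 of its signalling, the helper ligand gene Cd40lg, the surface glycoprotein gene Thy1, Dapl1, and the lineage regulators Bcl11b and Gata3. In all, 36 genes had a positive difference and 2 a negative one, with a median log2 fold change of 0.25 compared to -0.04 over all genes. The mice of the groups did not overlap for 16 of the 38 genes, all of them higher in B+Con-FMT (10.6% of all genes were higher without overlap and 23.6% lower), and 19 genes had an unadjusted p under 0.05 (27.4% of all genes). Without 1 mouse, the comparison gave 3 to 8 calls: 3 without Con-sa mouse 1, Con-sa mouse 2 or B+Con-FMT mouse 1, 5 without B+Con-FMT mouse 2 and 6 without B+Con-FMT mouse 3, with Lck, Thy1 and Trat1 called each time.

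Compared to B-sa, 3 genes rose in B+Con-FMT (Cd3e, Thy1 and Il7r) and none fell. Over all genes 0.844% were called and 0.623% were called higher. Of the 38 genes, 32 were on the positive side and 6 on the negative side, with a median of 0.26 compared to 0.00 over all genes. The groups did not overlap for 13 genes, all higher in B+Con-FMT (10.4% of all genes, with 9.05% lower), and 20 had an unadjusted p under 0.05 (18.4% of all genes). The negative side held Txk, Pdcd1 and 4 of the 5 regulatory T cell genes. The count was 9 without B-sa mouse 1, and 0 without B-sa mouse 2, B-sa mouse 3, B+Con-FMT mouse 1 or B+Con-FMT mouse 2. Over all genes, 242 were called higher and 226 lower without B-sa mouse 1, compared to 79 and 28 with all mice. The fits that gave 0 called 18 to 40 of all genes higher and 1 to 16 lower.

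In B-sa compared to Con-sa, Dapl1 rose and Cd8b1, Il7r and Satb1 fell, 4 of 38 genes (10.5%) compared to 14.5% of all genes, with 4.73% of all genes called higher and 9.78% lower. The remaining 34 genes did not pass the test, and 19 of the 38 differences were positive and 19 negative, with a median of 0.00 compared to -0.04 over all genes. Under median-of-ratios scaling, 1 gene rose, 1 fell, and the split was 25 positive to 13 negative. No overlap was seen for Dapl1 and Foxp3, higher in B-sa (11.2% of all genes), and for Cd8b1, Satb1 and Il7r, lower (22.8% of all genes). The calls fell to 0 without Con-sa mouse 2 or B-sa mouse 2, to 1 without Con-sa mouse 1 or Con-sa mouse 3, and to 2 without B-sa mouse 1 or B-sa mouse 3. Over all genes, 700 were called higher and 1400 lower without B-sa mouse 1, compared to 599 and 1239 with all mice. The other fits without a mouse called 166 to 448 of all genes higher and 344 to 907 lower.

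In B+A10-FMT, Il7r and Ms4a4b rose compared to B-sa, 2 of 38 genes (5.26%), with 5.27% of all genes called and 4% called higher. The differences were positive for 29 genes and negative for 9, with a median of 0.11 compared to 0.05 over all genes. The groups did not overlap for 7 genes that were higher (19.7% of all genes) and for Pdcd1 and Gata3, which were lower (7.38% of all genes). The count was 4 without B-sa mouse 1, 0 without B+A10-FMT mouse 2, and 1 without B+A10-FMT mouse 1, B+A10-FMT mouse 3, B-sa mouse 2 or B-sa mouse 3. Over all genes, 507 were called higher and 161 lower with all mice. Without B-sa mouse 1 these were 609 and 224, and without B+A10-FMT mouse 2 they were 85 and 21. The fits that gave 1 called 117 to 313 of all genes higher and 24 to 156 lower.

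The recipients of the different donor materials were also set against each other. Gata3 was lower in recipients of B+A10-FMT, the 1 gene of 38 called, with 10.4% of all genes called and 2.78% called lower. On this axis 34 of the 38 genes (89.5%) had a negative difference, compared to 38.8% of all genes, and the median was -0.16 compared to 0.05. The mice did not overlap for 9 genes, all lower in B+A10-FMT (11.2% of all genes): Cd3d, Cd3e, Cd3g, Lck, Trat1, Thy1, Pdcd1, Bcl11b and Gata3. No gene was higher without overlap (23.8% of all genes). Without B+A10-FMT mouse 3, Gata3 was not called (adjusted p = 0.0603) and Lck and Satb1 were (adjusted p = 0.0485 and 0.0431), and without B+Con-FMT mouse 3, Gata3 and Trat1 were called (adjusted p = 0.0387 and 0.0325). The count was 0 without B+A10-FMT mouse 1, B+A10-FMT mouse 2, B+Con-FMT mouse 1 or B+Con-FMT mouse 2. Over all genes, the fits without a mouse called 159 to 905 higher and 63 to 254 lower, compared to 960 and 352 with all mice. B+A10-FMT mouse 3 was the mouse of its group with a high acinar sum.

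Compared to Con-sa, B+A10-FMT had no gene called by limma, with 0.41% of all genes called and 0.292% called lower, while 9 of the 38 genes and 13.5% of all genes had an unadjusted p under 0.05. The smallest adjusted p was 0.213, and 29 differences were positive and 9 negative, with a median of 0.13 compared to 0.01 over all genes. Cd40lg, Thy1, Ms4a4b, Il7r and Foxp3 were higher without overlap (11.7% of all genes) and Pdcd1 was lower without overlap (9.9% of all genes). The count stayed at 0 with any 1 mouse left out, in fits that called 0 to 13 of all genes higher and 1 to 36 lower.

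Of the 20 calls in these comparisons, 3 were made in all 6 fits with a mouse left out: Lck, Thy1 and Trat1 for B+Con-FMT against Con-sa. Il7r for B+A10-FMT against B-sa was called in 4 of the 6 and Lat for B+Con-FMT against Con-sa in 3. The other 15 calls were made in 2 or fewer of them. Under the 8 other settings, Thy1, Lat and Dapl1 for B+Con-FMT against Con-sa were called in all 8. For that comparison, Lck was called in 7 (adjusted p up to 0.0944) and Trat1 in 6 (adjusted p up to 0.0859).

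**Figure D2:**
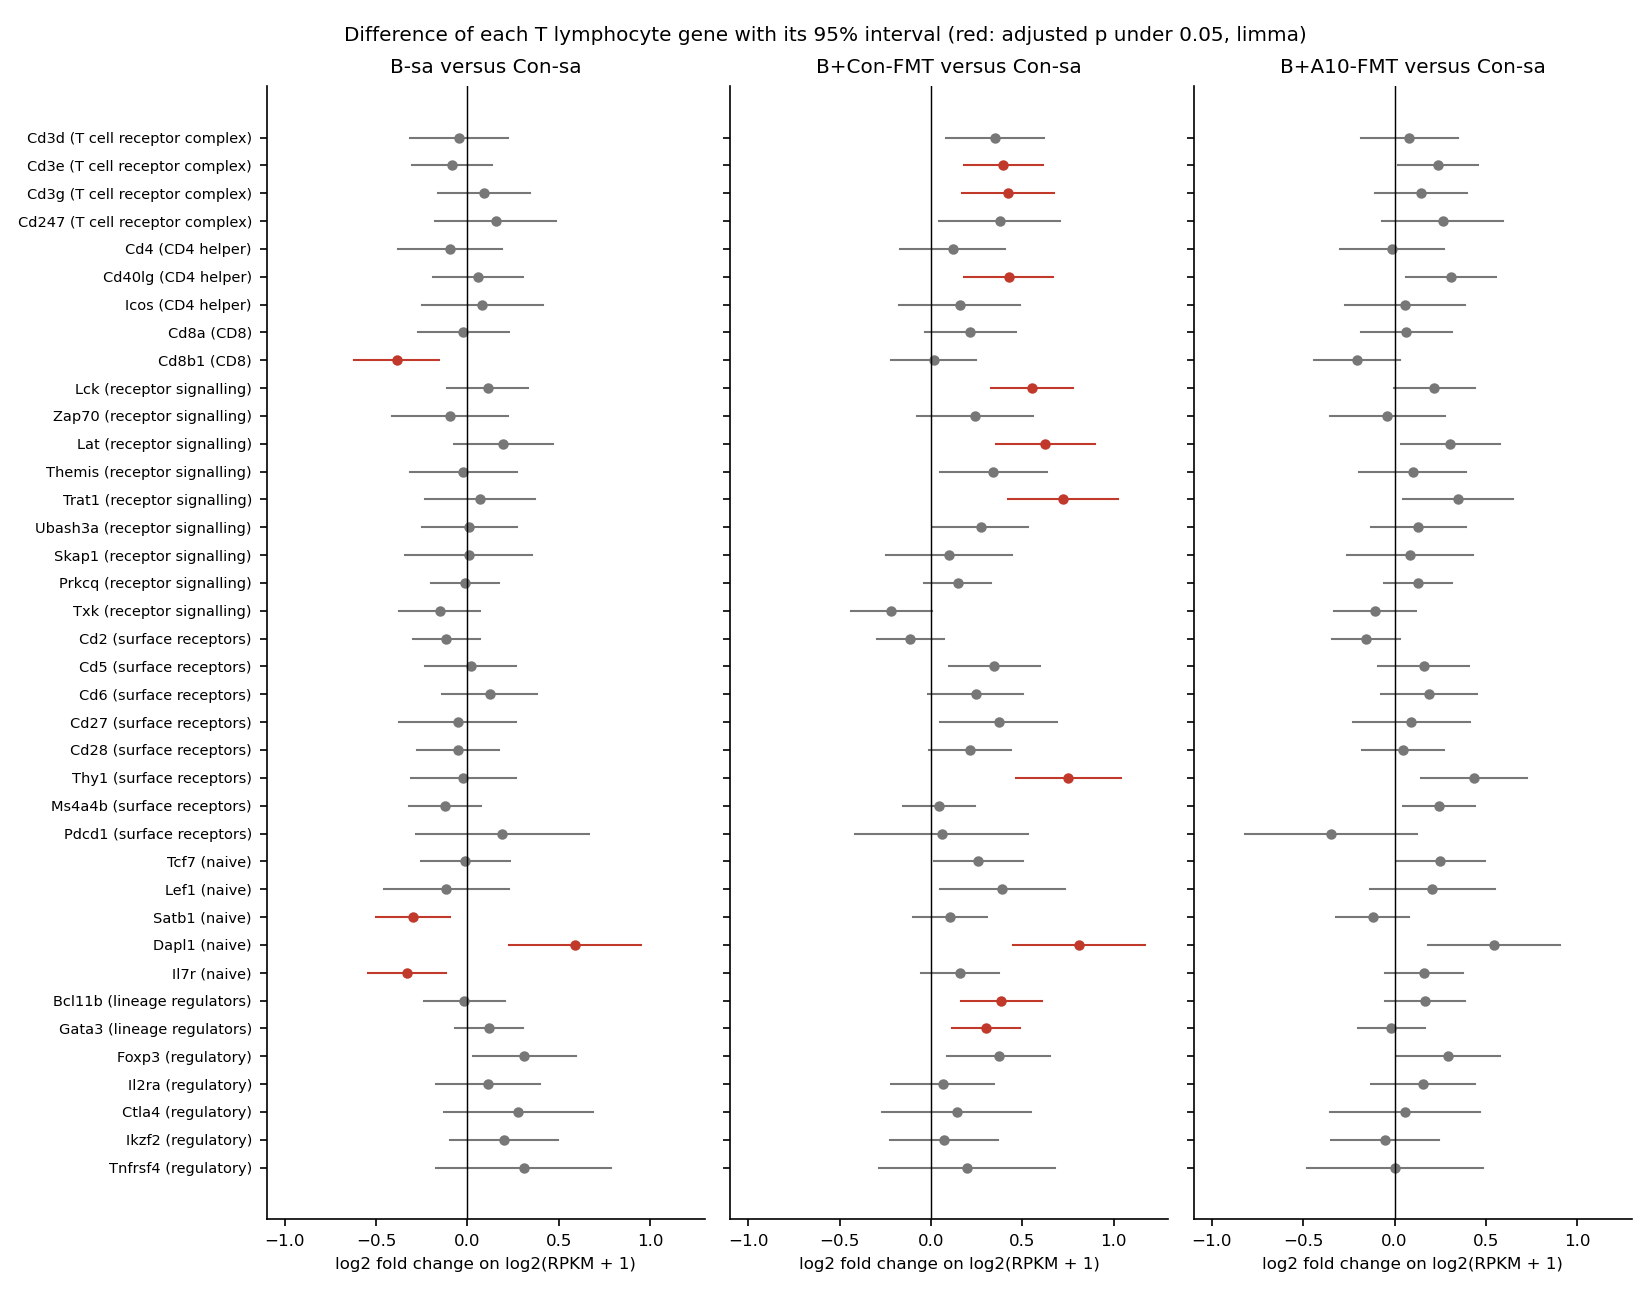
Log2 fold change of each of the 38 genes against Con-sa (x axis, on log2(RPKM + 1)) with its 95% interval, in 3 panels for B-sa mice, B+Con-FMT mice and B+A10-FMT mice. Red marks an adjusted p under 0.05: 4 genes in B-sa, 10 in B+Con-FMT, all to the right of 0, and none in B+A10-FMT.

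The receptor complex genes were higher in B+Con-FMT than in Con-sa by a median log2 fold change of 0.39, and 2 of the 4 passed the test. Cd3e, which encodes the epsilon chain, was at 33.7, 33.5 and 43.6 RPKM in the Con-sa mice, 38.6, 31.99 and 33.5 in the B-sa mice, 54.1, 45.8 and 46.3 in the B+Con-FMT mice and 44.8, 42.4 and 43.2 in the B+A10-FMT mice. All B+Con-FMT mice were above every mouse of the other groups. Cd3e rose by 0.40 ± 0.10 (SE) compared to Con-sa (adjusted p = 0.0329) and by 0.48 ± 0.10 compared to B-sa (adjusted p = 0.0492). Each of these calls was made in 1 of the 6 fits with a mouse left out, and the one against B-sa in 4 of 8 other settings. The 3 B+A10-FMT mice were above the 3 B-sa mice as well, with a difference of 0.32 that did not pass (adjusted p = 0.0787).

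Cd3g, the gamma chain gene, was at 69.1, 68.4 and 76.7 RPKM in the Con-sa mice, 90.3, 69.95 and 69.76 in the B-sa mice, 115, 85.7 and 89.8 in the B+Con-FMT mice and 76.8, 76.2 and 83.8 in the B+A10-FMT mice. It rose in B+Con-FMT by 0.42 ± 0.12 compared to Con-sa (adjusted p = 0.0435), and B-sa mouse 1 reached the range of B+Con-FMT. Cd3d, the delta chain gene, was at 26.8 to 47.7 RPKM over the 12 mice, and Cd247, which encodes the zeta chain, at 25.2 to 42.2 RPKM. Their differences between B+Con-FMT and Con-sa were 0.35 and 0.38 and did not pass (adjusted p = 0.0921 and 0.136).

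Among the 3 helper genes, Cd40lg was called in 1 comparison and Cd4 and Icos in none. Cd4, the coreceptor of helper T cells, was at 41.6, 41.01 and 48.5 RPKM in the Con-sa mice, 50.6, 37.2 and 35.98 in the B-sa mice, 55.1, 45.3 and 42.6 in the B+Con-FMT mice and 43.99, 39.4 and 46.2 in the B+A10-FMT mice. The groups overlapped in every comparison, and its largest difference, 0.21 between B+Con-FMT and B-sa, had an interval from -0.07 to 0.50. Cd40lg, the ligand through which helper T cells act on B cells, was at 4.75, 4.64 and 5.28 RPKM in the Con-sa mice, 5.88, 4.65 and 4.90 in the B-sa mice, 7.50, 7.26 and 6.02 in the B+Con-FMT mice and 7.58, 5.94 and 5.50 in the B+A10-FMT mice. It rose in B+Con-FMT by 0.43 ± 0.11 compared to Con-sa (adjusted p = 0.0387), with no overlap. Icos, the inducible costimulator of helper T cells, was at 5.94 to 9.88 RPKM, and the largest of its differences was 0.16.

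Of the 2 CD8 coreceptor genes, Cd8b1 was called in B-sa and Cd8a was not. Cd8b1, the beta chain gene, was at 23.7, 27.4 and 26.9 RPKM in the Con-sa mice, 19.04, 19.5 and 20.3 in the B-sa mice, 29.3, 22.9 and 26.9 in the B+Con-FMT mice and 19.6, 21.4 and 26.7 in the B+A10-FMT mice. The 3 B-sa mice lay below every Con-sa and B+Con-FMT mouse, and Cd8b1 fell by 0.39 ± 0.11 on the log2 scale compared to Con-sa (adjusted p = 0.0332). This call was made in 1 of the 6 fits with a mouse left out (adjusted p up to 0.102) and was lost with no filter (adjusted p = 0.0545) and with NM transcripts only (adjusted p = 0.0625). Cd8a, the alpha chain gene, was at 15.9, 15.7 and 18.95 RPKM in the Con-sa mice, 18.8, 14.8 and 16.1 in the B-sa mice, 21.5, 17.7 and 20.02 in the B+Con-FMT mice and 15.95, 16.3 and 20.9 in the B+A10-FMT mice. Its difference between B-sa and Con-sa was -0.02, with an interval from -0.27 to 0.23.

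The RPKM ratio of Cd8b1 to Cd8a, chosen after the values were seen, was 1.42 to 1.75 in the Con-sa mice, 1.01 to 1.32 in the B-sa mice, 1.3 to 1.37 in the B+Con-FMT mice and 1.23 to 1.31 in the B+A10-FMT mice. All 9 busulfan-treated mice were below the 3 Con-sa mice. The log2 difference between B-sa and Con-sa was -0.38 (two-sided exact permutation p = 0.1, the smallest that 3 mice against 3 can give). The ratio of Cd4 to Cd8a had means of 2.6 in the Con-sa mice, 2.48 in the B-sa mice, 2.42 in the B+Con-FMT mice and 2.46 in the B+A10-FMT mice, and the exact permutation p was 0.3 or more in all 6 comparisons. The ratio of Cd4 to Cd8b1 had means of 1.68, 2.11, 1.81 and 1.94 in the same order of groups. Its largest log2 difference was 0.31 between B-sa and Con-sa (exact permutation p = 0.2).

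Of the 9 kinases and adaptors that read the receptor, 3 rose in B+Con-FMT compared to Con-sa. Lck, the kinase that starts receptor signalling, was at 51.9, 53.4 and 60.4 RPKM in the Con-sa mice, 69.3, 55.3 and 55.2 in the B-sa mice, 90.2, 75.02 and 79.5 in the B+Con-FMT mice and 63.98, 58.2 and 71.1 in the B+A10-FMT mice. All B+Con-FMT mice were above the other 9 mice, and the difference to Con-sa was 0.55 ± 0.10 (adjusted p = 0.00935). Compared to B+A10-FMT, Lck did not pass (log2 fold change of -0.34 for B+A10-FMT mice against B+Con-FMT mice, adjusted p = 0.0554).

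Lat, the membrane adaptor phosphorylated by Zap70, was at 44.2, 41.3 and 54.6 RPKM in the Con-sa mice, 60.5, 52.2 and 47.9 in the B-sa mice, 79.3, 64.5 and 73.2 in the B+Con-FMT mice and 65.1, 50.5 and 57.8 in the B+A10-FMT mice. It rose in B+Con-FMT by 0.63 ± 0.12 compared to Con-sa (adjusted p = 0.0144), with B+A10-FMT mouse 1 just inside the B+Con-FMT range. Trat1, an adaptor associated with the receptor complex, was at 8.87, 5.88 and 6.13 RPKM in the Con-sa mice, 7.37, 7.01 and 7.33 in the B-sa mice, 14.5, 12.3 and 9.65 in the B+Con-FMT mice and 9.24, 8.96 and 8.76 in the B+A10-FMT mice. The B+Con-FMT mice were above all others, and the difference to Con-sa was 0.72 ± 0.14 (adjusted p = 0.0111). Against B-sa the difference of Trat1 was 0.66 and did not pass (adjusted p = 0.0523), though it did with only genes at 1 RPKM or more in every mouse tested (adjusted p = 0.0456).

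The other 6 signalling genes were not called in any comparison. They were Zap70, the kinase recruited to the zeta chain (10.99 to 19.8 RPKM), Themis, which acts in thymocyte selection (3.96 to 7.56), Ubash3a, a dampener of receptor signalling (5.24 to 8.62), the adaptor gene Skap1 (11.9 to 18.5), Prkcq, which encodes protein kinase C theta (20.5 to 28.1), and the Tec family kinase gene Txk (5.97 to 8.73). By mouse, Txk was at 7.75, 6.89 and 8.73 RPKM in the Con-sa mice, 7.21, 6.71 and 6.74 in the B-sa mice, 7.30, 5.97 and 6.39 in the B+Con-FMT mice and 6.54, 6.57 and 8.42 in the B+A10-FMT mice, with overlap in every comparison. It was the signalling gene with a negative difference between B+Con-FMT and Con-sa (-0.22, adjusted p = 0.192), the lowest of the 38 genes in that comparison.

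Among the surface receptors, Thy1 had the largest difference between B+Con-FMT and B-sa. Thy1, a glycoprotein carried by all mouse T cells, was at 44.6, 38.98 and 50.6 RPKM in the Con-sa mice, 52.2, 40.1 and 40.1 in the B-sa mice, 90.5, 69.5 and 68.5 in the B+Con-FMT mice and 60.97, 56.5 and 64.3 in the B+A10-FMT mice. The B+Con-FMT mice lay above all others, and the B+A10-FMT mice lay between them and the saline groups without overlap on either side. Thy1 rose in B+Con-FMT by 0.77 ± 0.13 compared to B-sa (adjusted p = 0.0229) and by 0.75 ± 0.13 compared to Con-sa (adjusted p = 0.00877). In B+A10-FMT its differences were 0.46 to B-sa and 0.44 to Con-sa (adjusted p = 0.0649 and 0.213).

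Ms4a4b, which encodes a 4-span membrane protein of T cells, was at 79.7, 89.4 and 87.4 RPKM in the Con-sa mice, 85.02, 71.3 and 79.2 in the B-sa mice, 101, 83.9 and 80.3 in the B+Con-FMT mice and 106, 105 and 92.6 in the B+A10-FMT mice. It rose in B+A10-FMT by 0.37 ± 0.09 compared to B-sa (adjusted p = 0.04). This call was made in 3 of 8 other settings (adjusted p up to 0.0745, and 0.0692 with median-of-ratios scaling). With a mouse left out, it was made in 2 of the 6 fits (adjusted p up to 0.15). All B+A10-FMT mice were above all Con-sa and B-sa mice. Pdcd1, the gene of the inhibitory receptor PD-1, was at 2.70, 3.67 and 2.05 RPKM in the Con-sa mice, 5.05, 2.54 and 2.66 in the B-sa mice, 2.99, 3.77 and 2.13 in the B+Con-FMT mice and 1.99, 1.92 and 1.93 in the B+A10-FMT mice. The B+A10-FMT mice were the 3 lowest of the 12, and the difference to B-sa was -0.54 ± 0.22, which did not pass (adjusted p = 0.154).

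Cd27, a costimulatory receptor whose protein was also stained in these spleens, was at 20.5, 20.2 and 25.6 RPKM in the Con-sa mice, 25.2, 17.8 and 21.1 in the B-sa mice, 35.1, 24.3 and 27.7 in the B+Con-FMT mice and 23.5, 21.8 and 25.3 in the B+A10-FMT mice. Its ranges overlapped in all 6 comparisons and none passed, with the largest difference 0.42 between B+Con-FMT and B-sa (adjusted p = 0.169). The adhesion receptor gene Cd2 (75.7 to 95.5 RPKM), the scavenger receptor family genes Cd5 (17.3 to 26.9) and Cd6 (13.2 to 18.8) and the costimulator gene Cd28 (9.32 to 15.1) were not called in any comparison. Cd2 was the other gene with a negative difference between B+Con-FMT and Con-sa (-0.11).

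**Figure D3:**
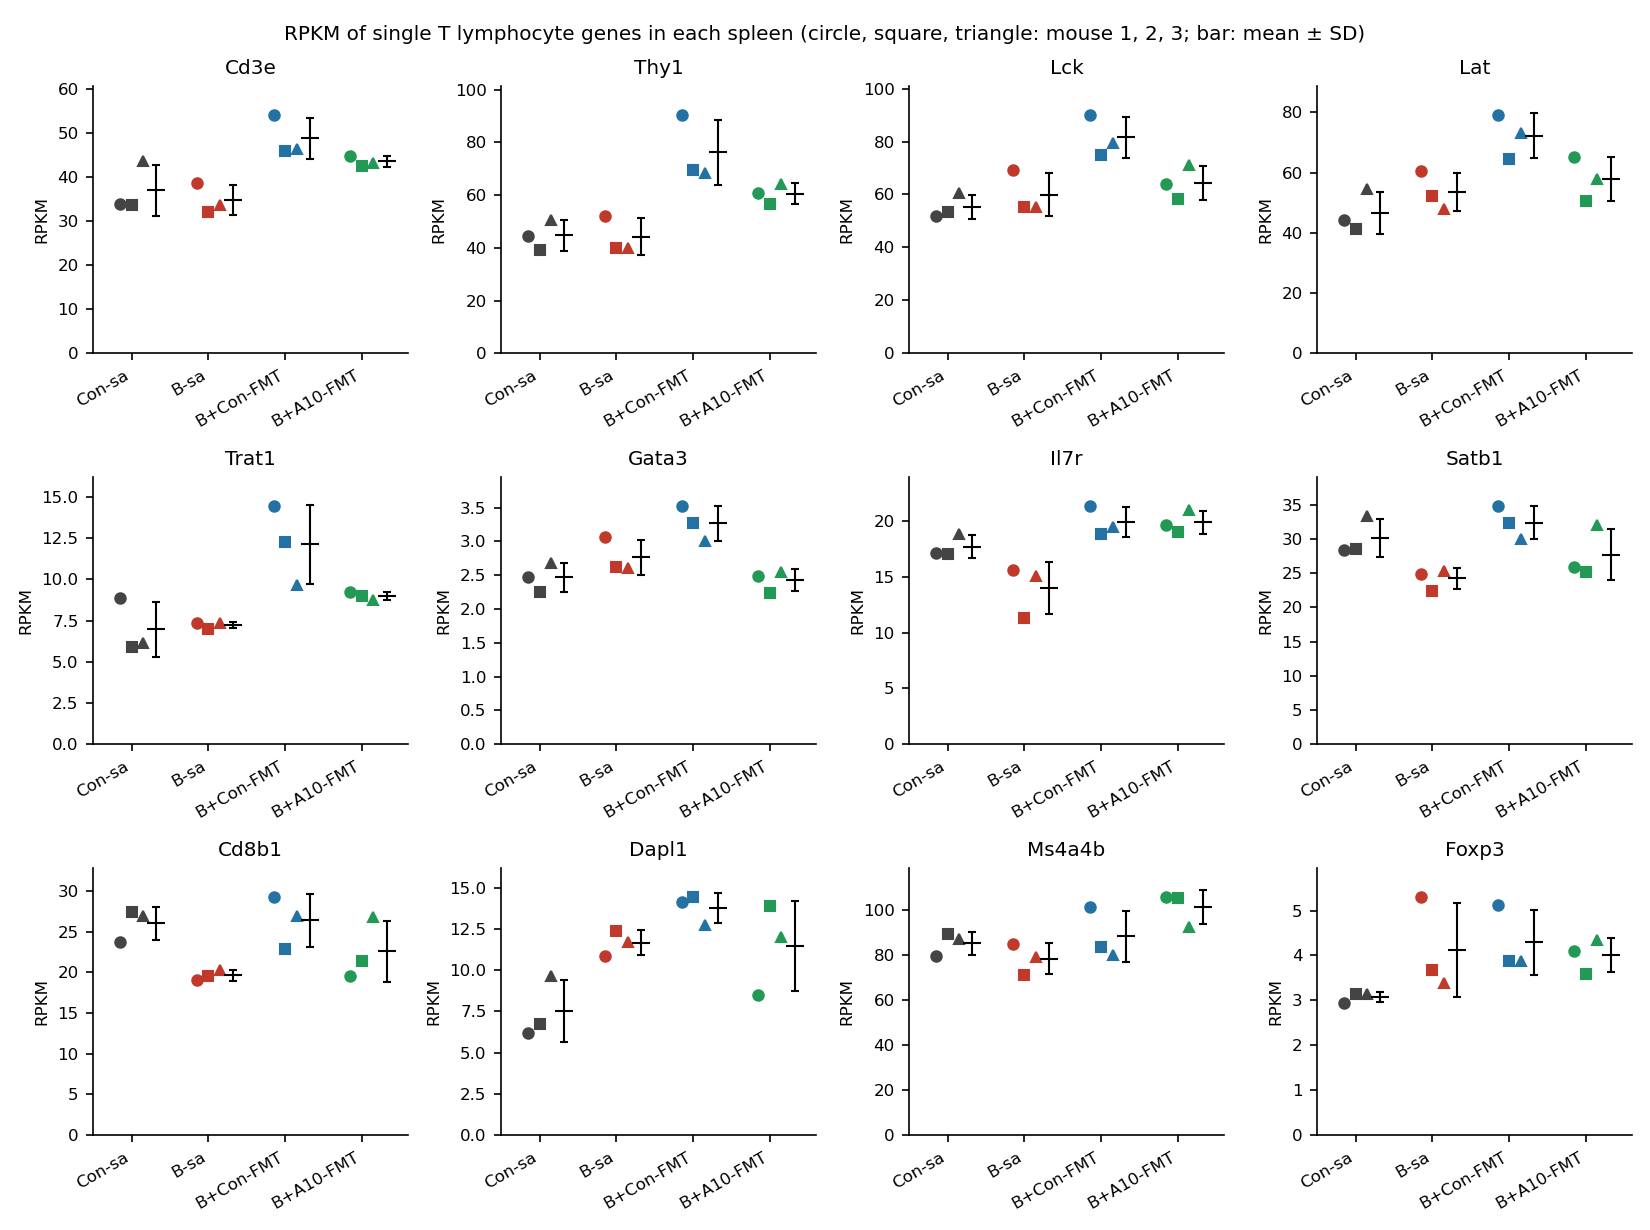
RPKM (y axis, from 0) of 12 T lymphocyte genes in each mouse (points) of the 4 groups (x axis), with mean and SD. Cd3e, Thy1, Lck and Trat1 are higher in all 3 B+Con-FMT mice than in the other 9 mice, Il7r is lowest in the 3 B-sa mice, and Dapl1 is lowest in Con-sa mice 1 and 2.

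The genes of naive T cells did not move as 1 group in B-sa. Il7r, the alpha chain of the interleukin 7 receptor, was at 17.2, 17.02 and 18.9 RPKM in the Con-sa mice, 15.6, 11.3 and 15.1 in the B-sa mice, 21.4, 18.8 and 19.4 in the B+Con-FMT mice and 19.66, 18.98 and 21.02 in the B+A10-FMT mice. The 3 B-sa mice were the lowest of the 12, and Il7r was called in 3 comparisons, more than any other gene of the list. It fell by 0.33 ± 0.10 in B-sa compared to Con-sa (adjusted p = 0.043, or 0.0605 with median-of-ratios scaling), and without B-sa mouse 2 the difference was -0.19 (adjusted p = 0.137). It rose by 0.49 ± 0.10 in B+Con-FMT mice and by the same 0.49 ± 0.10 in B+A10-FMT mice compared to B-sa (adjusted p = 0.0409 and 0.0188), which share the B-sa mice. Between the FMT groups the difference of Il7r was 0.00, with an interval from -0.21 to 0.22.

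Satb1, a chromatin organiser of T cells, was at 28.4, 28.6 and 33.3 RPKM in the Con-sa mice, 24.9, 22.5 and 25.3 in the B-sa mice, 34.9, 32.3 and 30.03 in the B+Con-FMT mice and 25.9, 25.2 and 32.01 in the B+A10-FMT mice. It fell by 0.30 ± 0.09 in B-sa compared to Con-sa (adjusted p = 0.0488), a call that was lost under both other scalings (adjusted p = 0.0782 and 0.0508) and with each mouse left out in turn. Its leading transcript, a predicted one, gave 39% of the Satb1 value, and with only curated (NM) transcripts counted the difference was -0.11 (adjusted p = 0.627). Tcf7, which encodes TCF-1 of naive and memory T cells, was at 47.4, 47.4 and 57.4 RPKM in the Con-sa mice, 59.04, 44.6 and 47.8 in the B-sa mice, 65.6, 58.8 and 57.8 in the B+Con-FMT mice and 60.9, 53.6 and 67.3 in the B+A10-FMT mice. It did not pass in any comparison, nor did its relative Lef1 (20.5 to 38.2 RPKM), whose largest difference was 0.50 between B+Con-FMT and B-sa (adjusted p = 0.133).

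Dapl1, a gene transcribed in naive T cells, was the gene with the largest rise in B-sa and in B+Con-FMT compared to Con-sa. It was at 6.20, 6.73 and 9.65 RPKM in the Con-sa mice, 10.9, 12.4 and 11.7 in the B-sa mice, 14.1, 14.5 and 12.7 in the B+Con-FMT mice and 8.51, 13.9 and 12.03 in the B+A10-FMT mice. All B-sa and B+Con-FMT mice exceeded all Con-sa mice, while B+A10-FMT mouse 1 lay within the Con-sa range. The rise was 0.59 ± 0.17 in B-sa (adjusted p = 0.0365) and 0.81 ± 0.17 in B+Con-FMT (adjusted p = 0.0163). In B+A10-FMT the difference was 0.55 and did not pass (adjusted p = 0.213). Thus Dapl1 and Il7r, both counted here as naive T cell genes, were called in opposite directions in B-sa.

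The regulators of the T lineage were low in RPKM and highest in B+Con-FMT. Bcl11b, which keeps cells committed to the T lineage, was at 5.33, 4.77 and 5.70 RPKM in the Con-sa mice, 5.91, 4.79 and 4.90 in the B-sa mice, 8.15, 6.82 and 6.62 in the B+Con-FMT mice and 6.45, 5.28 and 6.41 in the B+A10-FMT mice. It rose by 0.39 ± 0.10 in B+Con-FMT compared to Con-sa (adjusted p = 0.0378), and its B+Con-FMT mice were above all others. Gata3, a factor of T cell development and of type 2 helper cells, was at 2.48, 2.25 and 2.68 RPKM in the Con-sa mice, 3.06, 2.62 and 2.61 in the B-sa mice, 3.53, 3.27 and 3.01 in the B+Con-FMT mice and 2.49, 2.24 and 2.55 in the B+A10-FMT mice.

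Gata3 rose by 0.30 ± 0.09 in B+Con-FMT compared to Con-sa (adjusted p = 0.0484), a call lost with any mouse left out and with equal totals outside the globin genes (adjusted p = 0.0542). In B+A10-FMT it fell by 0.32 ± 0.09 on the log2 scale compared to B+Con-FMT (adjusted p = 0.0374), a call made in 1 of the 6 fits with a mouse left out (adjusted p up to 0.142) and in 6 of 8 other settings (adjusted p up to 0.637, and 0.0595 with only the 2 groups fitted). The 3 B+A10-FMT mice lay below all B+Con-FMT and B-sa mice and within the range of Con-sa, apart from mouse 2 just below it. Its leading transcript gave 69.7% of the Gata3 value, and with only NM transcripts counted the last difference was -0.16 (adjusted p = 0.637).

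The 5 regulatory T cell genes were not called in any comparison. Foxp3, which defines regulatory T cells, was at 2.94, 3.14 and 3.14 RPKM in the Con-sa mice, 5.31, 3.67 and 3.38 in the B-sa mice, 5.13, 3.88 and 3.88 in the B+Con-FMT mice and 4.09, 3.59 and 4.34 in the B+A10-FMT mice. Every busulfan-treated mouse was above every Con-sa mouse. The differences to Con-sa were 0.31 for B-sa mice, 0.37 for B+Con-FMT mice and 0.30 for B+A10-FMT mice (adjusted p = 0.124, 0.0907 and 0.349).

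Ctla4, an inhibitory receptor gene, was at 3.87, 4.05 and 3.51 RPKM in the Con-sa mice, 6.99, 4.46 and 3.54 in the B-sa mice, 5.34, 3.72 and 3.96 in the B+Con-FMT mice and 4.24, 3.18 and 4.71 in the B+A10-FMT mice. Its groups overlapped throughout, and its difference of -0.14 between B+Con-FMT and B-sa was the lowest of the 38 genes in that comparison (adjusted p = 0.747). Tnfrsf4, the OX40 gene, was at 5.10 to 11.8 RPKM, Ikzf2, the Helios gene, at 1.69 to 3.37, and Il2ra, the CD25 gene, at 2.01 to 3.25. Ctla4, Tnfrsf4 and Ikzf2 peaked in B-sa mouse 1 and Il2ra in B+A10-FMT mouse 3. The mean log2(RPKM + 1) of the 5 genes was 2.086 ± 0.005 in Con-sa and 2.33 ± 0.34 in B-sa, with mice at 2.70, 2.26 and 2.03. Tnfrsf4 in B-sa compared to Con-sa differed by 0.31 (adjusted p = 0.362), and by 0.58 when B-sa mouse 3 was left out (adjusted p = 0.0324).

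Ratios to Cd3e were computed to compare genes within a spleen, after the values were seen. The Foxp3 to Cd3e ratio was 0.072 to 0.0936 in the Con-sa mice, 0.101 to 0.138 in the B-sa mice, 0.0837 to 0.0949 in the B+Con-FMT mice and 0.0846 to 0.1 in the B+A10-FMT mice. The 3 B-sa mice were the highest of the 12, with a log2 difference of 0.48 to Con-sa (two-sided exact permutation p = 0.1, the smallest possible). The Dapl1 to Cd3e ratio was 0.184 to 0.221 in the Con-sa mice, 0.282 to 0.387 in the B-sa mice, 0.261 to 0.316 in the B+Con-FMT mice and 0.19 to 0.328 in the B+A10-FMT mice. It separated B-sa and B+Con-FMT from Con-sa but not B+A10-FMT, with log2 differences of 0.74, 0.49 and 0.36 (exact permutation p = 0.1, 0.1 and 0.3). The Il7r to Cd3e ratio was 0.432 to 0.509 in the Con-sa mice, 0.353 to 0.449 in the B-sa mice, 0.395 to 0.419 in the B+Con-FMT mice and 0.439 to 0.486 in the B+A10-FMT mice. Here the B+Con-FMT mice lay below all Con-sa and B+A10-FMT mice, with a log2 difference of -0.24 to Con-sa (exact permutation p = 0.1). The Tnfrsf4 to Cd3e ratio was 0.152 to 0.306 in the B-sa mice and overlapped the 0.161 to 0.189 of the Con-sa mice (exact permutation p = 0.4), while the B+Con-FMT and B+A10-FMT mice, at 0.142 to 0.16 and 0.133 to 0.155, lay below Con-sa (exact permutation p = 0.1 each). The Satb1 to Cd3e ratio was 0.763 to 0.852 in the Con-sa mice and lower in every busulfan-treated mouse (exact permutation p = 0.1 for each group). The B-sa mice were at 0.645 to 0.755, the B+Con-FMT mice at 0.645 to 0.704 and the B+A10-FMT mice at 0.577 to 0.741. With 8 ratios and 6 comparisons computed, no adjusted value could pass in this design.

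**Figure D4:**
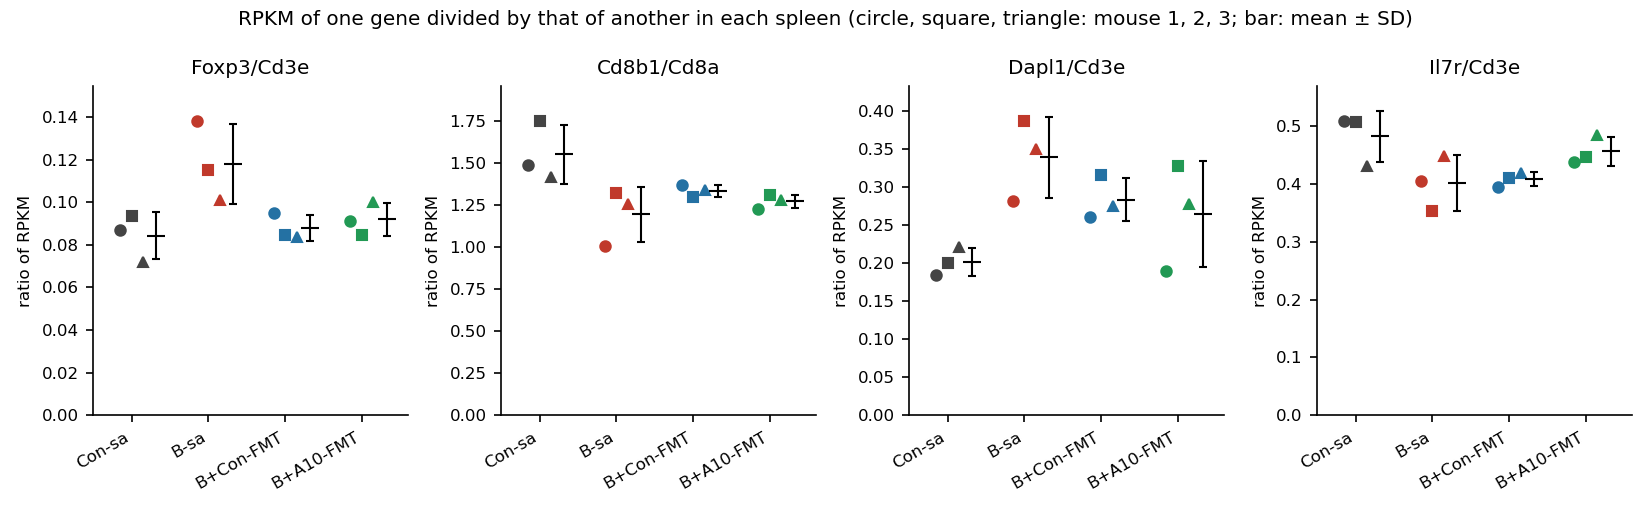
Ratio of the RPKM of a pair of genes (y axis, from 0) in each mouse (points) of the 4 groups (x axis), with mean and SD. The Foxp3 to Cd3e ratio is highest in the 3 B-sa mice (0.101 to 0.138), and the Cd8b1 to Cd8a ratio is highest in the 3 Con-sa mice (1.42 to 1.75).

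The wider T cell receptor pathway was read from 45 further genes. In B-sa compared to Con-sa, none of them rose and 9 fell (4.73% and 9.78% of all genes), and their median log2 fold change was -0.18 compared to -0.04 over all genes. Malt1, which carries the signal to NF-kappaB in both T and B cells, fell by 0.47 (adjusted p = 0.0075), and Cbl, a ubiquitin ligase gene, fell by 0.40 (adjusted p = 0.00955). In B+Con-FMT compared to Con-sa, 2 of the 45 rose and 2 fell (2.3% and 6.57% of all genes), with a median of -0.02 compared to -0.04. The adaptor gene Dok2 rose by 0.44 (adjusted p = 0.0084), while Cbl fell by 0.35 (adjusted p = 0.0218).

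In B+Con-FMT compared to B-sa, 2 of the 45 pathway genes rose and none fell (0.623% and 0.221% of all genes), with 38 differences positive and 7 negative and a median of 0.11. Over all genes, 48.5% of the differences were positive and the median was -0.004. The 2 were Plcg1, the phospholipase downstream of Lat (0.32, adjusted p = 0.0413), and Carmil2, which acts with CD28 (0.37, adjusted p = 0.0486). In B+A10-FMT compared to B-sa, 3 rose (4% of all genes), namely Cbl, Plcg1 and the adaptor gene Fyb, with 36 differences positive and 9 negative and a median of 0.14. Here 62.5% of the differences of all genes were positive, with a median of 0.05. Between the FMT groups, 1 was higher in B+A10-FMT and 3 were lower (7.58% and 2.78% of all genes), led by Tespa1, a gene of thymocyte selection, at 23.7 RPKM in B+Con-FMT mice and 14.2 in B+A10-FMT mice (log2 fold change of -0.69, adjusted p = 0.0152). Ptprc, Ptpn6 and Csk, the pathway genes with the highest RPKM (127 to 225 by group mean) and shared by all leukocytes, were called in 1 instance, a fall of Csk by 0.24 in B-sa compared to Con-sa (adjusted p = 0.0264).

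Of 9 genes of T zone homing and stroma, 3 fell in B-sa compared to Con-sa (9.78% of all genes) and 2 differences were positive. Among the 3 were S1pr1, which lets lymphocytes exit (92.8 to 66.2 RPKM by group mean, adjusted p = 0.00512), and Klf2, a factor that drives its transcription (104 to 75.2 RPKM, adjusted p = 0.0119). B cells also transcribe S1pr1 and Klf2, and B cell markers moved the same way, 10 of 14 falling in B-sa. In B+A10-FMT compared to B-sa, S1pr1 rose by 0.54 (adjusted p = 0.00571). Ccr7, the chemokine receptor of the T zone, whose protein was stained in the study, had group means of 45.6 RPKM (B-sa) to 51.9 RPKM (B+Con-FMT) and was not called in any of the 6 comparisons. Its ligand genes Ccl21a and Ccl19, made by T zone stroma, were at 565 to 757 and 100 to 122 RPKM by group mean and were not called. CCL21 protein was stained as well. The paper reported that busulfan lowered CCL21 and CCR7 protein and the number of CD27 positive cells, each raised after A10-FMT and not after Con-FMT. Stained protein in sections and RNA of the spleen are different measures.

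Of 25 effector and helper subset genes, 21 were tested and 6 fell in B-sa compared to Con-sa, with none rising (9.78% and 4.73% of all genes). Eomes, a factor of NK and effector CD8 T cells, went from 3.95 RPKM in Con-sa to 2.09 in B-sa (adjusted p = 0.00296) and 1.99 in B+Con-FMT (adjusted p = 0.00195), Tbx21 fell by 0.49 (adjusted p = 0.0466) and Runx3 by 0.41 (adjusted p = 0.00296) in B-sa. NK cells transcribe all 3, and 9 of the 10 NK markers fell in B-sa and 8 in B+Con-FMT, among them Ncr1, from 12.9 RPKM in Con-sa to 4.07 and 2.98. Runx3 was higher in both FMT groups than in B-sa, by 0.34 in B+Con-FMT mice and 0.22 in B+A10-FMT mice (adjusted p = 0.0164 and 0.04). Between the FMT groups, 1 of the 21 was higher in B+A10-FMT and 2 were lower (7.58% and 2.78% of all genes), and the higher one was Eomes (0.36, adjusted p = 0.0357). Izumo1r, the folate receptor 4 gene of regulatory and unresponsive CD4 T cells, was lower after B+A10-FMT (13.7 RPKM) than after B+Con-FMT (19.6 RPKM, adjusted p = 0.0255), as was the cytokine gene Tnf (5.14 and 7.54 RPKM, adjusted p = 0.0367).

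**Figure D5:**
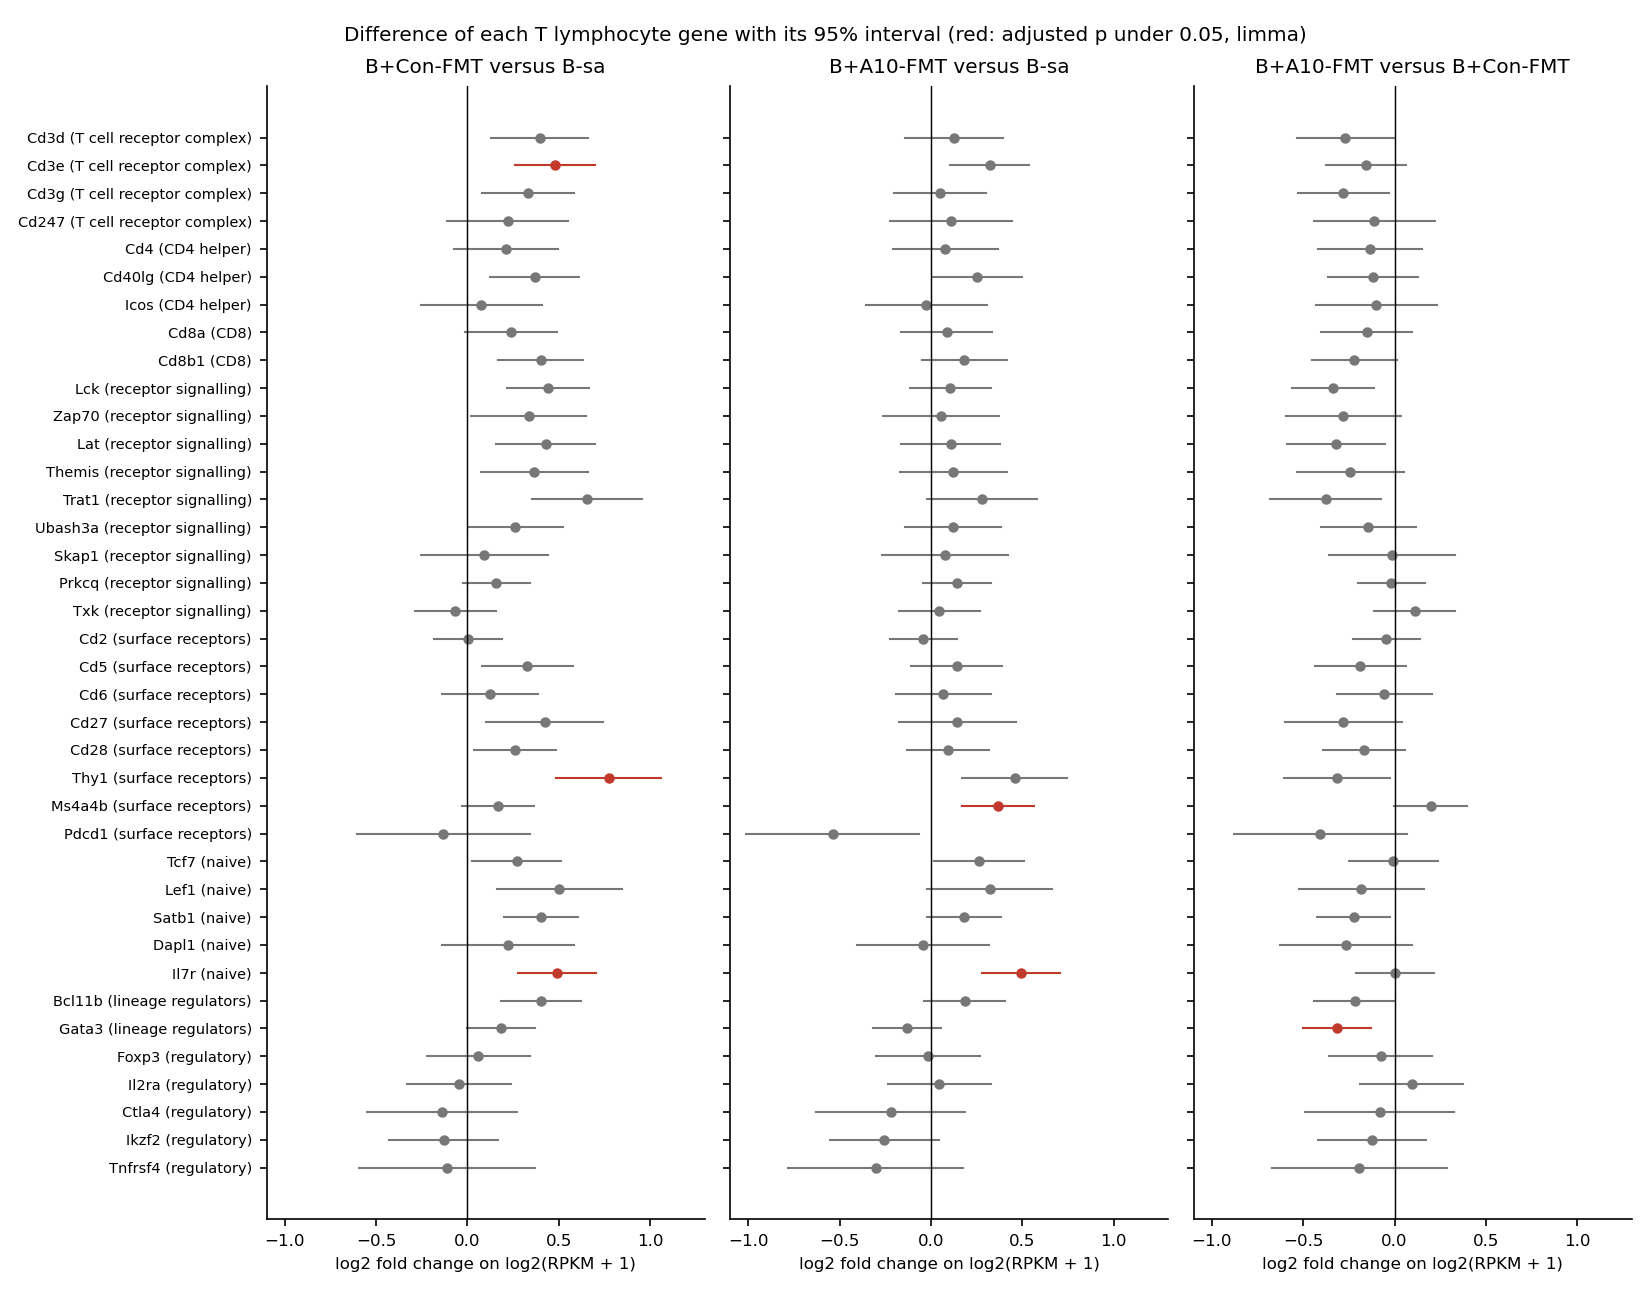
Log2 fold change of each of the 38 genes (x axis, on log2(RPKM + 1)) with its 95% interval, in 3 panels for the comparisons among the busulfan groups. Red marks an adjusted p under 0.05: Cd3e, Thy1 and Il7r for B+Con-FMT mice against B-sa mice, Ms4a4b and Il7r for B+A10-FMT mice against B-sa mice, and Gata3 for B+A10-FMT mice against B+Con-FMT mice, where 34 of 38 points lie left of 0.

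Other cell markers moved in some of the comparisons in which T lymphocyte genes were called. In B-sa compared to Con-sa, 2 of 8 neutrophil markers and 4 of 8 erythroid markers tested rose (4.73% of all genes did), with medians of 1.09 and 0.33. In B+Con-FMT compared to B-sa, all 11 acinar markers had positive differences (median of 3.26) and all 8 neutrophil markers negative ones (median of -0.63), with none called. In B+A10-FMT compared to B-sa, 3 of 10 macrophage and monocyte markers, 2 of 10 NK markers and 1 of 9 dendritic cell markers rose (4% of all genes did). Between the FMT groups, 7 of 10 macrophage and monocyte markers and 4 of 9 dendritic cell markers were higher in B+A10-FMT (7.58% of all genes were), with median log2 fold changes of 0.43 and 0.32, while Gata3 was lower. In B+Con-FMT compared to Con-sa, in which 10 T lymphocyte genes rose, 6 of 14 B cell markers fell (median of -0.27), and so did 8 of 10 NK markers (median of -0.97) and 3 of 9 dendritic cell markers (6.57% of all genes fell). All 11 acinar markers had positive differences there (median of 1.81), with none called, and were above the Con-sa range in sum. The B+Con-FMT group and its acinar level cannot be told apart with these samples.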

How the data were processed

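Spleen RNA of 12 mice was sequenced, and the deposited values are RPKM for each RefSeq transcript, 1 table per mouse. The authors enriched mRNA with oligo(dT), mapped the reads with SOAPaligner and turned the read numbers into RPKM before deposit, per the paper's methods. The submitters' processing notes name HISAT, Bowtie2 and mm10, and how these relate to SOAPaligner was not settled. Raw counts were not used, so the test of the paper (DEGseq) could not be run. The RPKM of 60654 transcripts were summed to 18221 genes, 18101 of them matched to symbols in RefSeq (GRCm38.p6). A gene was tested if it reached 1 RPKM in 3 or more mice (12671 genes). The test was that of limma 3.58.1 (R 4.3.3) on log2(RPKM + 1), a single model of the 4 groups over the 12 mice, with trended and robust empirical Bayes moderation. P-values are two-sided, adjusted by Benjamini-Hochberg over all genes tested, and called under 0.05. Single values and ratios were also compared by exact permutation of 3 mice against 3, for which the smallest p is 0.1. The test was checked on simulated data.

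The genes and all lists were chosen with earlier results of these data known. Values in every mouse are given for the genes called in any comparison, for Cd3e, Cd4, Cd8a, Cd8b1, Foxp3, Tcf7 and Lck, and for the gene with the largest rise and fall in each comparison, with ranges for the rest. Cd27 and Ccr7 are given because their proteins were stained. Of the other lists, the 3 genes of highest RPKM and up to 3 called genes of largest change per comparison could be named, some of which are not reported here. Alternatives were the replicate number as a block, scaling by median-of-ratios factors or to equal non-globin totals, a pseudocount of 0.1, no filter or one that asks for 1 RPKM in all 12 mice, curated (NM) transcripts only, a fit of just the 2 groups compared, and leaving out each mouse. The estimated depth was 15000000 to 15600000 reads for each mouse, and precision rests on the spread between 3 mice, since no counting interval is possible from RPKM. Ahsp of the erythroid list had no match. Motifs and figures were made with Python 3.11.15, NumPy 2.4.6, pandas 2.3.3 and matplotlib 3.10.9.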

Additional observations from a re-analysis of the deposited data

How the results depend on the processing

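No called result changed its direction, while uncalled differences changed sign in 27 of 1658 fits under the 8 settings other than leaving out a mouse. Over all genes, B-sa mice against Con-sa mice had 599 called higher and 1239 lower. With median-of-ratios scaling these were 965 and 772, with no filter 468 and 1081, and with NM transcripts only 294 and 447. For B+Con-FMT mice against B-sa mice, 79 and 28 became 57 and 14 with no filter, and 25 and 0 with NM transcripts only. For B+Con-FMT mice against Con-sa mice, 292 and 832 became 211 and 664, then 137 and 245, in these settings. The number of T lymphocyte genes called moved with the processing too, and the cause was not tested. Median-of-ratios scaling gave 2 for B-sa mice against Con-sa mice (4 as reported), 1 for B+A10-FMT mice against B-sa mice (2 as reported) and 2 for B+A10-FMT mice against B+Con-FMT mice (1 as reported, with Lck added), where a filter asking for 1 RPKM in all mice also gave 2. With no filter, 0 were called for B-sa mice against Con-sa mice, 1 for B+Con-FMT mice against B-sa mice, 1 for B+A10-FMT mice against B-sa mice and 5 for B+Con-FMT mice against Con-sa mice. With NM transcripts only, in which 37 genes were tested, the counts were 0, 1 and 0 for these first 3 comparisons, 0 for B+A10-FMT mice against B+Con-FMT mice and 3 for B+Con-FMT mice against Con-sa mice. With only the 2 groups compared, the counts were 2 for B-sa mice against Con-sa mice and 0 for B+Con-FMT mice against B-sa mice, B+A10-FMT mice against B-sa mice and B+A10-FMT mice against B+Con-FMT mice. With 1 mouse left out, they were 0 to 2 for B-sa mice against Con-sa mice, 0 to 9 for B+Con-FMT mice against B-sa mice, 0 to 4 for B+A10-FMT mice against B-sa mice, 0 to 2 for B+A10-FMT mice against B+Con-FMT mice and 3 to 8 for B+Con-FMT mice against Con-sa mice. Of the 20 calls of single genes, 111 of 160 fits under the 8 other settings and 43 of 120 with a mouse left out still passed. With 1 mouse left out, the mean difference of the 38 genes was -0.075 to 0.081 for B-sa mice against Con-sa mice (0.026 as reported). It was 0.165 (without B+Con-FMT mouse 1) to 0.349 for B+Con-FMT mice against B-sa mice (0.249 with all mice), 0.037 (without B-sa mouse 2) to 0.191 (without B-sa mouse 1) for B+A10-FMT mice against B-sa mice (0.09), -0.205 to -0.074 (without B+Con-FMT mouse 1) for B+A10-FMT mice against B+Con-FMT mice (-0.158), 0.069 (without B+A10-FMT mouse 3) to 0.171 for B+A10-FMT mice against Con-sa mice (0.116) and 0.19 to 0.329 for B+Con-FMT mice against Con-sa mice (0.274). Without B-sa mouse 3 or B+A10-FMT mouse 3, the B+A10-FMT difference from B-sa was 0.043.

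Replicate numbers are shared between groups but belong to different mice. The mean correlation of the deviations of same-numbered mice was -0.17 to 0.18 over the comparisons, and no comparison had all its pairs over 0.1. The 0.18 was that of B+Con-FMT mice against Con-sa mice, where differently numbered mice had a mean of -0.089. With 3 mice in each group, these correlations cannot decide whether equal numbers share a batch. With the replicate block, Cd3e was replaced by Trat1 (adjusted p = 0.0548 and 0.0285) among the calls for B+Con-FMT mice against B-sa mice, Ms4a4b by Thy1 (0.053 and 0.0427) for B+A10-FMT mice against B-sa mice, and Gata3 (0.0617) was not called for B+Con-FMT mice against Con-sa mice. The calls then numbered 4 for B-sa mice against Con-sa mice, 3 for B+Con-FMT mice against B-sa mice, 2 for B+A10-FMT mice against B-sa mice, 1 for B+A10-FMT mice against B+Con-FMT mice, 0 for B+A10-FMT mice against Con-sa mice and 9 for B+Con-FMT mice against Con-sa mice.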
